A study of Rattus norvegicus with 9 samples.

Results

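A set of 10 genes was followed in rat superior mesenteric artery (SMA), the vessel that supplies most of the small intestine. They are the 4 ID genes Id1, Id2, Id3 and Id4, the 2 inhibitory SMAD genes Smad6 and Smad7, and the 4 ligand genes Tgfb1, Tgfb2, Tgfb3 and Bmp4. They were chosen by symbol as feedback and ligand genes of the BMP and TGF-beta pathway, and all 10 were among the 37203 symbols of the count table and among the 15482 genes with enough counts to test. The arteries came from 8-week-old SD (Sprague-Dawley) rats in 3 groups of 3 libraries, which were normal artery, artery at 1 h of ischemia and artery at 4 h of ischemia. The labels name no genotype or drug for any group. Ischemia was a hemorrhage model in which rats were bled through a femoral artery, so the whole animal lost blood. The study's methods give sodium pentobarbital anaesthesia and a catheter in that artery for this model. They describe no sham surgery for the normal group. The series design gives 3 rats a group, and the libraries were analysed so, but the study's own text can be read as fewer animals. Its methods take the artery after the rat was killed, so a rat could not serve in several groups. The labels do not settle whether libraries of the same group share an animal. If they do, the p-values may measure partly technical spread. If all libraries of a group came from a single rat, that spread would hold no variation between animals. The p-values would then not speak to other rats.

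BMP and TGF-beta ligands bind paired type I and type II receptors, which phosphorylate receptor SMADs. These enter the nucleus with the common SMAD, Smad4, and switch on target genes. The ID genes are classic BMP targets, and ID proteins hold E proteins such as Tcf3 away from DNA. Smad6 and Smad7 are induced by the same signal and block the receptors or the SMADs in turn, which makes them a negative feedback arm. In arteries the pathway acts in both endothelium and smooth muscle, and losses of BMP receptor function are known from inherited vascular disease.

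The promoters of Smad7, Id4 and Id3 are shown because the levels of the first 2 lay above normal artery at 4 h and those of Id3 below it. Each is the RefSeq sequence of build GRCr8 from 250 bases before to 50 bases after the gene start, 5′ to 3′ on the strand of the gene, and capitals mark GGCGCC, the core of the BMP response element.
Smad7, chr18:71263258-71263557, plus strand: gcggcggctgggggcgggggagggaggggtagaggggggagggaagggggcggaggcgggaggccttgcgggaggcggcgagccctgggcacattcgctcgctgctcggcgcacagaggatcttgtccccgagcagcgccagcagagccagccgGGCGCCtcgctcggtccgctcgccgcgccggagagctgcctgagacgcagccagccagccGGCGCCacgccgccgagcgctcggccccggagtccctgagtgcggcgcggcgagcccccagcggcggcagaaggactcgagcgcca
Id4, chr17:16598244-16598543, minus strand: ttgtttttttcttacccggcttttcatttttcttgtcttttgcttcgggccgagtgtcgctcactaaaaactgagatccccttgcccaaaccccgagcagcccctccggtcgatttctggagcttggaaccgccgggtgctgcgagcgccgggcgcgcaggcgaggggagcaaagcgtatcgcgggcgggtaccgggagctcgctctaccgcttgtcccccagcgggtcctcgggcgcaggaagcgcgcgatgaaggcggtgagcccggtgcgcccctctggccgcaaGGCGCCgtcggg
Id3, chr5:153656041-153656340, plus strand: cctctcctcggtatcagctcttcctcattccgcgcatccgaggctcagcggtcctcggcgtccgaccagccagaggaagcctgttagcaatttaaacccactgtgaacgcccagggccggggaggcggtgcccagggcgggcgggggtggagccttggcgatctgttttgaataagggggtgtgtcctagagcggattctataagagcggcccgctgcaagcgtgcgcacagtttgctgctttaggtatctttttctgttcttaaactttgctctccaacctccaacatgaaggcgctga
Smad7 held GGCGCC at -96 and -36 from the gene start, and Id4 held it at +39. Id3 held none of the 4 motifs searched. A promoter was found for 9 of the 10 genes, without Smad6. GGCGCC, which reads the same on both strands, was present in 2 of these 9 (Id4 and Smad7) and in 11.0% of all 33469 rat promoters of that length. The Smad7 window was 77.7% G and C, the highest of the 9, against a median of 51.7% over all promoters. The palindromic SMAD box GTCTAGAC was found in 0 of the 9 promoters and in 0.197% of all, and the cAMP response element TGACGTCA in 0 of the 9 and in 1.83% of all. The E-box CACGTG was found in Tgfb2 and Bmp4 and in 6.42% of all. No match overlapped another, and a match here is a description of the sequence, not a site of binding. The search covered only this window of each gene. An element farther from the gene start would be missed, so a motif not found here may still be present outside it.

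Total counts per library ran from 13114273 to 15504240, and levels are given as CPM, the counts scaled to a common library size with TMM factors, so that 1 CPM stood for 12.1 to 17.9 counts. Smooth muscle and endothelial markers of the artery wall were present in every library, beside nerve and fat markers that varied widely. The 10 smooth muscle markers summed to 10704 to 47200 CPM in normal artery, 12361 to 45271 CPM at 1 h and 23588 to 67011 CPM at 4 h, with the lowest sum in normal replicate 1 and the highest in 4 h replicate 1. Of the 12 endothelial markers, 11 passed the filter, and their sum was 1030 to 1845 CPM, 811 to 1351 CPM and 847 to 1168 CPM in the 3 groups. Normal replicate 1 stood apart with the highest Schwann cell sum (4010 CPM). Replicates 1 and 3 at 1 h and replicate 3 at 4 h had sympathetic neuron marker sums of 7062, 7131 and 7073 CPM, against 34.4 to 796 CPM in the other libraries. The 8 fibroblast markers (1747 to 4411 CPM), 7 adipocyte markers (267 to 2152 CPM) and 6 macrophage markers (95.8 to 230 CPM) were all tested, and 0 of 7 lymphocyte markers passed the filter (0.0827 to 36.6 CPM in sum). The libraries of a group therefore differed in tissue makeup, and in such bulk samples fewer cells of a type and less RNA per cell cannot be told apart.

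Against normal artery, Smad7 showed the highest gain of the 10 genes and Id3 the deepest loss. Smad7 was 3.55-fold higher at 4 h, and Id3 was at 0.476 of its normal level at 1 h and 0.489 at 4 h. Id1 was 2.23-fold and Id4 2.19-fold higher at 4 h, with Id1 overlapping the normal range. The 3 TGF-beta genes and Bmp4 stayed near or somewhat below normal, with intervals that all included 0 on the log2 scale. None of these changes passed the main test, edgeR's quasi-likelihood test at a Benjamini-Hochberg adjusted p under 0.05 over all genes tested and a fold over 1.5.

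**Figure D1:**
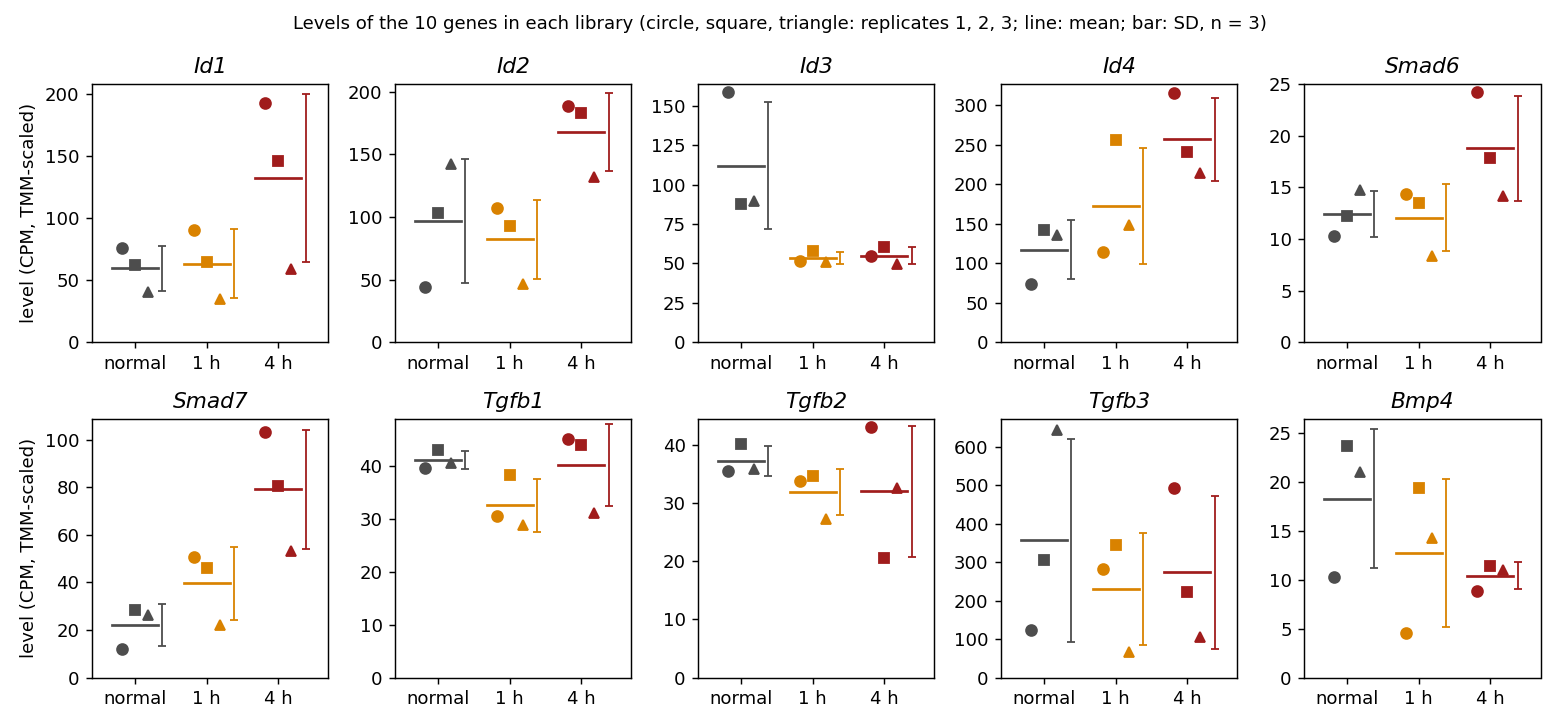
Levels (CPM, TMM-scaled) of the 10 genes in all 9 libraries. Each panel is 1 gene with its own axis from 0, the symbols are replicates 1 to 3, the line is the group mean and the bar is ± SD (n = 3). The 6 ischemic libraries of Id3 sit between 49.4 and 60.2 CPM under all 3 normal ones, while the 4 h libraries of Id4 and Smad7 lie above all 3 normal ones.

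How many of the 10 genes differed was read against the whole table. At 1 h edgeR called 0 of 10 genes, where 0.0581% of all genes tested were called. At 4 h it also called 0 of 10 against 0.0904%, between 4 h and 1 h 0 of 10 against 0%, with both ischemia times together against normal 0 of 10 against 0.426%, and over the 3 groups together 0 of 10 against 0.0388%. The table as a whole gave few calls (9, 14, 0, 66 and 6 genes), with a biological coefficient of variation of 51.6%.

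At an unadjusted p under 0.05, 1 gene (Id3) was lower and 0 were higher at 1 h, where 8.67% of all genes were lower and 7.98% higher. At 4 h, 3 genes (Id1, Id4 and Smad7) were higher against 5.07% of all genes, and 1 (Id3) was lower against 7.35%. Between 4 h and 1 h, 1 gene (Smad7) was higher against 1.33%, and 0 were lower against 1.25%. With both times together, 2 genes (Id4 and Smad7) were higher against 7.19%, and 1 (Id3) was lower against 9.96%.

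Groups that did not overlap gave a similar picture. At 1 h, 3 genes (Id3, Tgfb1 and Tgfb2) had all ischemic libraries below all normal ones, against 13.5% of all genes, and 0 had them above, against 12.8%. At 4 h, 2 genes (Id4 and Smad7) lay wholly above, against 7.93%, and Id3 wholly below, against 10.8%. Id2 and Smad7 lay wholly above their 1 h values at 4 h, against 3.2% of all genes. Id3 was the only one of the 10 with all 6 ischemic libraries below normal, against 6.8% of all genes. The median log2 fold change of the 10 genes was -0.23 at 1 h and 0.28 at 4 h, beside -0.01 and 0.03 over all genes tested.

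DESeq2, the alternative count test, called more genes throughout. It called 1 of 10 (Id3) at 1 h, where it called 4.8% of the genes it tested. It called 2 of 10 (Id3 and Smad7) at 4 h against 3.98%, the same 2 with both times together against 6.73%, and the same 2 over the 3 groups together against 4.39%. It called 0 of 10 between 4 h and 1 h, where it called no gene of the table either.

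**Figure D2:**
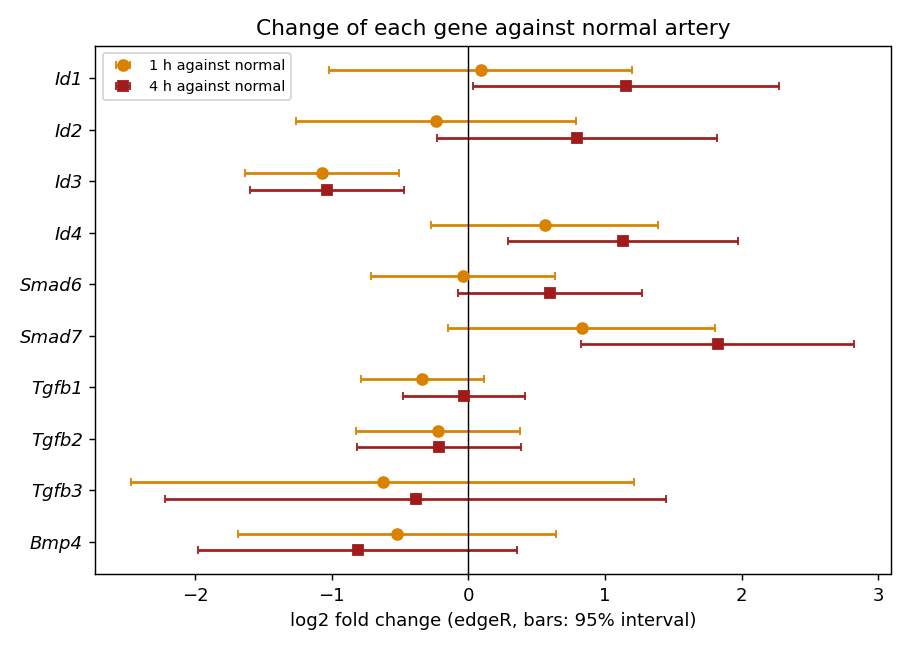
Log2 fold change of each gene at 1 h (circles) and 4 h (squares) against normal artery, with 95% intervals from the edgeR fit. The intervals exclude 0 for Id3 at both times and for Id1, Id4 and Smad7 at 4 h, before any adjustment for the number of genes tested.

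The ID genes did not share a direction, with Id3 below normal artery and Id1, Id2 and Id4 above it at 4 h. Id3 stood at 159, 87.6 and 89.7 CPM in normal replicates 1 to 3, at 51.4, 57.9 and 50.8 CPM at 1 h, and at 54.8, 60.2 and 49.4 CPM at 4 h. All 6 ischemic libraries lay under the lowest normal one, and within each ischemic group they differed by little, with an SD of 3.94 CPM at 1 h and 5.40 CPM at 4 h against 40.4 CPM in normal artery (n = 3 each). Its log2 fold change was -1.07 (SE 0.25, 95% interval -1.63 to -0.51) at 1 h and -1.03 (SE 0.25, -1.60 to -0.47) at 4 h. The adjusted p values of edgeR were 0.188 and 0.16, and 0.071 with both times together (log2 fold change -1.05, SE 0.20). In DESeq2 they were 0.00669, 0.00942 and 0.000754. The level of Id3 at 4 h was close to that at 1 h, with a log2 difference of 0.04 and an interval from -0.52 to 0.60.

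Part of the size of the Id3 difference rested on normal replicate 1. Without that library the log2 fold change was -0.73 at 1 h and -0.70 at 4 h, still with no overlap between the other libraries. The same library had the highest endothelial (1845 CPM), Schwann cell (4010 CPM) and adipocyte (2152 CPM) marker sums and the lowest smooth muscle sum (10704 CPM). Id3 is expressed in endothelium as well as in smooth muscle. Endothelial sums were 1030 to 1845 CPM in normal artery, 811 to 1351 CPM at 1 h and 847 to 1168 CPM at 4 h. The part of endothelial content in the Id3 difference was not tested.

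Id1, the best known BMP target of the family, was at 75.4, 62.4 and 40.3 CPM in normal artery, at 90.3, 64.2 and 35.0 CPM at 1 h, and at 192, 146 and 59.0 CPM at 4 h. The first 2 libraries at 4 h lay above all others, but the third lay inside the normal range. In edgeR the log2 fold change was 1.15 (SE 0.49, 0.04 to 2.27) at 4 h with an adjusted p of 0.389, and 0.09 (SE 0.48, adjusted p 0.934) at 1 h. Without 4 h replicate 1 the 4 h value was 0.76. At 1 h the direction depended on single libraries, with -0.26 without 1 h replicate 1 and -0.12 without normal replicate 3. Between the ischemia times Id1 differed by 1.07 (-0.05 to 2.18), or by 0.67 without 4 h replicate 1.

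Id2 was at 44.2, 103 and 142 CPM in normal artery, at 107, 92.7 and 46.6 CPM at 1 h, and at 188, 183 and 132 CPM at 4 h. The 3 libraries at 4 h lay above all 3 at 1 h, while normal replicate 3 reached into their range. Its log2 fold change was -0.24 (SE 0.45, adjusted p 0.793) at 1 h and 0.80 (SE 0.45, adjusted p 0.507) at 4 h against normal. Between 4 h and 1 h it differed by 1.03 (-0.00097 to 2.06), with an adjusted p of 0.856. Without normal replicate 1 the 4 h value was 0.45. The 1 h value turned to 0.15 without normal replicate 3 and to 0.01 without 1 h replicate 3.

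Id4, the family member most studied in nervous tissue, was at 74.4, 142 and 136 CPM in normal artery, at 115, 256 and 148 CPM at 1 h, and at 316, 241 and 215 CPM at 4 h. Its 4 h libraries lay above all normal ones, and its 1 h libraries spanned the gap between. Id4 had a log2 difference from normal of 0.56 (SE 0.36, adjusted p 0.413) at 1 h and 1.13 (SE 0.37, 0.29 to 1.97, adjusted p 0.265) at 4 h. Without 1 h replicate 2 the 1 h value was 0.16, and without normal replicate 1 it was 0.32. In DESeq2 the adjusted p at 4 h was 0.0802. With the mean level of the Schwann cell and sympathetic neuron markers as a covariate, the 1 h and 4 h values of Id4 were 0.96 and 1.18. The part of nerve content in the Id4 values was not tested further.

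Of the 2 inhibitory SMADs, Smad7 had the wider range. Smad7, which sends type I receptors to degradation and dampens both branches of the pathway, was at 12.1, 28.2 and 26.5 CPM in normal artery, at 50.9, 45.9 and 22.2 CPM at 1 h, and at 103, 80.5 and 53.4 CPM at 4 h. Every 4 h library lay above every other library of the 9, and at 1 h replicates 1 and 2 lay above normal while replicate 3 did not. Against normal its log2 fold change was 0.83 (SE 0.43, -0.15 to 1.81, adjusted p 0.329) at 1 h and 1.83 (SE 0.44, 0.83 to 2.83, adjusted p 0.16) at 4 h. Without normal replicate 1 the 1 h value was 0.53 and the 4 h value 1.53. Between 4 h and 1 h Smad7 differed by 1.00 (0.02 to 1.97), with an unadjusted p of 0.0466 and an adjusted p of 0.856 in edgeR. With both times together the value was 1.33 (SE 0.39, adjusted p 0.154 in edgeR and 0.0204 in DESeq2), and DESeq2 gave an adjusted p of 0.00524 at 4 h.

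Smad6, which acts mainly on the BMP branch, was at 10.3, 12.2 and 14.7 CPM in normal artery, at 14.3, 13.5 and 8.36 CPM at 1 h, and at 24.2, 17.8 and 14.2 CPM at 4 h. Replicates 1 and 2 at 4 h lay above all other libraries, and replicate 3 lay inside the normal range. Its log2 fold change was -0.04 (SE 0.29, adjusted p 0.951) at 1 h and 0.60 (SE 0.29, -0.08 to 1.27, adjusted p 0.454) at 4 h. Between the ischemia times it was 0.64 (-0.04 to 1.31). Without 4 h replicate 1 these were 0.34 at 4 h against normal and 0.38 between the times.

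Several of these genes had their highest or lowest level in the libraries with the most or least smooth muscle marker RNA. Id1, Id2, Id4, Smad6 and Smad7 all had their highest level in 4 h replicate 1, the library with the most smooth muscle marker RNA (67011 CPM), and Id2, Id4 and Smad7 had their lowest in normal replicate 1, the library with the least (10704 CPM). Id1 ran the other way within normal artery, at 75.4, 62.4 and 40.3 CPM with sums of 10704, 46456 and 47200 CPM. Within each group Smad7 was lowest in the library with the least smooth muscle RNA, with sums of 10704, 12361 and 23588 CPM. At sums of 46456, 45271 and 48052 CPM, replicate 2 of the normal, 1 h and 4 h groups, a set of 1 library a group picked after the values were seen, had Smad7 at 28.2, 45.9 and 80.5 CPM. Id3 in the same 3 libraries was at 87.6, 57.9 and 60.2 CPM. The part of smooth muscle content in these differences was not tested beyond the covariate fit that follows.

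With the mean log2 level of the 10 smooth muscle markers as a covariate, a fit chosen after these values were seen, the SE of Smad7 at 4 h was 0.21 in place of 0.44. Its log2 fold change at 4 h was then 1.54 with an adjusted p of 0.0391 in edgeR, so 1 of 10 genes was called, against 0.413% of all genes under that fit. With both times together 2 of 10 were called, Smad7 at 1.26 (adjusted p 0.0271) and Id3 at -0.97 (adjusted p 0.0493), against 2.22% of all genes. Id4 at 4 h was 0.94 (SE 0.24, adjusted p 0.141).

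**Figure D3:**
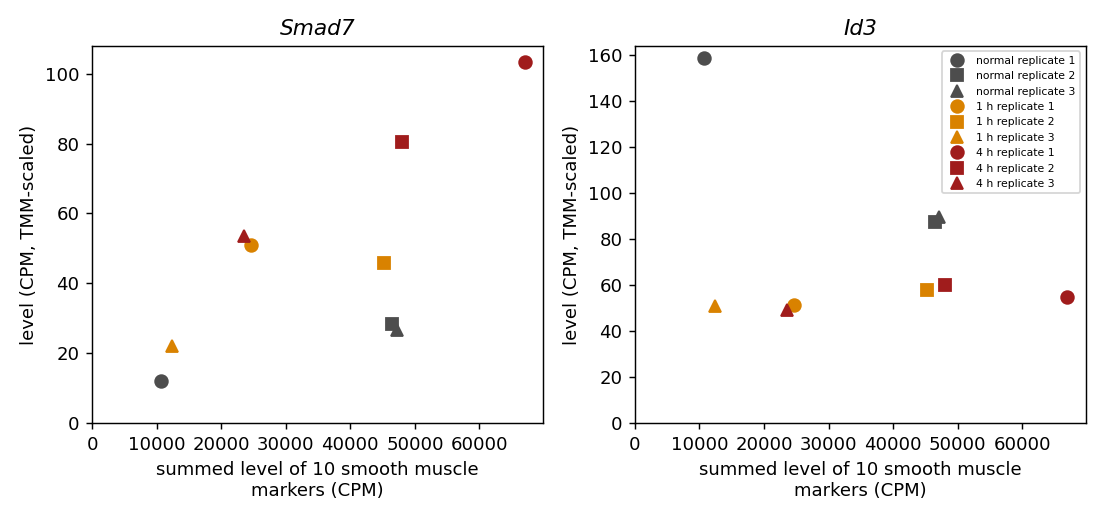
Level of Smad7 (left) and Id3 (right) in each library (y axis, CPM) against the summed level of 10 smooth muscle markers (x axis, CPM). Colours are groups and symbols replicates. Smad7 is lowest in normal replicate 1, which has the least marker RNA, and highest in 4 h replicate 1, which has the most. Id3 is lower in every ischemic library than in any normal one. The part of smooth muscle content in these levels was not tested beyond a fit with these markers as a covariate.

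Ratios of 2 genes within a library need no scaling between libraries. They were chosen after the values were seen and are given without a test. The count of Smad7 over that of Smad6 was 1.18, 2.32 and 1.80 in normal artery, 3.56, 3.40 and 2.65 at 1 h, and 4.27, 4.52 and 3.76 at 4 h. The 3 groups did not overlap, and the means were 1.77 ± 0.57, 3.20 ± 0.48 and 4.18 ± 0.38 (SD, n = 3). The count of Id1 over that of Id3 was 0.475, 0.713 and 0.449 in normal artery, 1.76, 1.11 and 0.689 at 1 h, and 3.50, 2.42 and 1.20 at 4 h. The 4 h libraries lay above all normal ones, and 1 h replicate 3 reached into the normal range. The ratios compare libraries and do not rank the 2 genes by level, since counts also grow with transcript length.

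**Figure D4:**
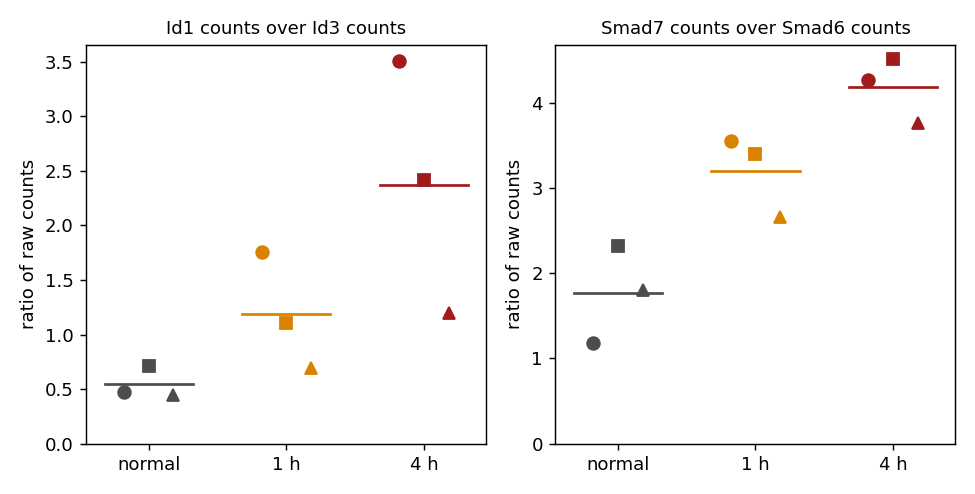
Ratio of raw counts of Id1 over Id3 (left) and of Smad7 over Smad6 (right) in each library. Symbols are replicates 1 to 3 and lines are group means. Both ratios have their group means in the order normal, 1 h, 4 h, and the Smad7 over Smad6 ratio does not overlap between groups.

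The ligand genes gave no such pattern. Tgfb1, the main TGF-beta of blood vessels and platelets, was at 39.6, 42.9 and 40.6 CPM in normal artery, at 30.5, 38.2 and 28.9 CPM at 1 h, and at 45.1, 44.0 and 31.2 CPM at 4 h. All 1 h libraries lay under the normal ones by a small margin, and 2 of the 4 h libraries lay above them. Its log2 fold change was -0.34 (SE 0.20, -0.78 to 0.11, adjusted p 0.367) at 1 h and -0.03 (SE 0.19, -0.48 to 0.41, adjusted p 0.96) at 4 h. Its within-group spread was the smallest of the 10 genes, with an SD of 0.21 on the log2 scale against a median of 0.44 over all genes tested, so a change of 1.5-fold at 4 h lies outside its interval.

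Tgfb2, which has a known part in the growth of the outflow vessels, was at 35.4, 40.1 and 35.9 CPM in normal artery, at 33.8, 34.6 and 27.3 CPM at 1 h, and at 43.0, 20.5 and 32.5 CPM at 4 h. The 1 h libraries lay just under the normal ones, and the 4 h libraries lay on both sides. The log2 fold change was -0.22 at both times (SE 0.26, adjusted p 0.66 at 1 h and 0.757 at 4 h).

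Tgfb3 varied more between libraries of a group than between groups. It was at 123, 305 and 643 CPM in normal artery, at 281, 345 and 67.5 CPM at 1 h, and at 492, 223 and 105 CPM at 4 h. Its within-group SD of 1.20 on the log2 scale was the highest of the 10 genes, and its intervals ran from -2.47 to 1.21 at 1 h and from -2.22 to 1.45 at 4 h, which leaves even a 2-fold change in either direction undetected at this depth and spread. In the 1 h group the lowest value was in replicate 3, the library with the least smooth muscle RNA of that group, and in the normal group in replicate 1, likewise the least. The log2 fold change was -0.63 (SE 0.80, adjusted p 0.688) at 1 h and -0.39 (SE 0.80, adjusted p 0.87) at 4 h, and without normal replicate 3 it was 0.11 and 0.35.

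Bmp4, a BMP ligand made by the vessel wall, was at 10.2, 23.6 and 21.0 CPM in normal artery, at 4.55, 19.4 and 14.3 CPM at 1 h, and at 8.85, 11.4 and 11.0 CPM at 4 h. Normal replicate 1 lay among the ischemic values, so the groups overlapped at both times. The log2 fold change was -0.52 (SE 0.51, -1.68 to 0.64, adjusted p 0.587) at 1 h and -0.81 (SE 0.51, -1.98 to 0.36, adjusted p 0.548) at 4 h.

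The other genes of the pathway came from 8 lists by role, with 76 genes in the count table and 71 tested. Smad9, Bmp7, Bmp10, Gdf2 and Itgb6 had too few counts. edgeR called 0 of 71 in each of the 5 comparisons, where it called 0.0581% of all genes at 1 h, 0.0904% at 4 h and at most 0.426% elsewhere. At an unadjusted p under 0.05, 8 of 71 were higher and 3 lower at 1 h, where 7.98% of all genes were higher and 8.67% lower. At 4 h, 7 were higher and 6 lower, against 5.07% and 7.35% of all genes. Their median log2 fold change was -0.14 at 1 h and -0.11 at 4 h. DESeq2 called 5 at 1 h and 5 at 4 h, against 4.8% and 3.98% of all genes, a test added after its calls among the 10 genes were seen. Apart from the most abundant pair of each list, the genes named here were chosen after their values were seen, as those past the unadjusted threshold.

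Among the ligands, 12 were listed and 9 tested. Inhbb, the beta B chain of activin B, was at 3.42, 2.04 and 1.92 CPM in normal artery, at 19.3, 48.5 and 42.0 CPM at 1 h, and at 6.78, 21.8 and 31.9 CPM at 4 h. All 6 ischemic libraries lay above all normal ones, with a log2 fold change of 3.88 (SE 0.63) at 1 h and 3.03 (SE 0.61) at 4 h. The adjusted p values of edgeR were 0.117 and 0.102, and DESeq2 called it at both times. Inhba, the beta A chain of activin A, was at 11.8 to 74.6 CPM in normal artery, 19.7 to 48.5 CPM at 1 h and 13.8 to 22.7 CPM at 4 h. Gdf15, a stress-induced ligand, had a log2 fold change of 2.67 at 4 h (adjusted p 0.317), which came with 11.8 CPM in replicate 3 against 0.91 and 1.41 CPM in the others and was 0.66 without replicate 3.

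Of the 13 receptors and coreceptors, all tested, Acvr1b (an activin type I receptor) was higher at 1 h, with a log2 fold change of 1.09. This value was 0.62 without 1 h replicate 2 and 1.66 without normal replicate 2, and the groups overlapped. At 4 h the log2 fold change of Acvr1b was 1.00 (edgeR unadjusted p 0.0539, adjusted p 0.408), with all 4 h libraries above all normal ones. Acvr1 (a BMP type I receptor) was lower at 1 h, with -0.54. At 4 h Tgfbr1, the type I receptor of TGF-beta, was lower with -0.60 (adjusted p 0.24). The most abundant pair, Tgfbr2 and the coreceptor Tgfbr3, overlapped between all groups, at 217 to 980 CPM and 66.5 to 581 CPM. Of the receptor and common SMADs, 5 of 6 were tested. Smad5, a BMP receptor SMAD, was at 116, 107 and 101 CPM in normal artery, 66.9, 92.9 and 62.6 CPM at 1 h, and 88.1, 80.3 and 72.0 CPM at 4 h. It lay under normal in all 6 ischemic libraries (log2 fold change -0.54 at 1 h and -0.43 at 4 h, adjusted p 0.261 and 0.405). Smad1, its close relative, ranged from 37.4 to 70.8 CPM. Its normal libraries overlapped both ischemic groups, while its 4 h libraries all lay below its 1 h ones (37.4, 37.5 and 43.8 CPM against 45.7, 70.8 and 54.4 CPM). Smad3, another receptor SMAD, was at 38.9, 39.3 and 33.9 CPM in normal artery, 11.0, 33.4 and 20.5 CPM at 1 h, and 21.1, 21.7 and 26.9 CPM at 4 h. Its log2 fold change was -0.79 at 1 h and -0.68 at 4 h (adjusted p 0.305 and 0.473 in edgeR). With both times together, 2 of the 5 lay wholly below normal and 0 wholly above. Of all 15482 genes tested, 1053 (6.8%) lay wholly below and 617 wholly above.

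Of 11 extracellular antagonists, all tested, 0 passed the unadjusted threshold at 1 h. At 4 h Nog (noggin) and Grem1 (gremlin), which trap BMP ligands, were lower. Nog was at 1.74, 1.17 and 1.40 CPM in normal artery against 0.165, 0.249 and 0.594 CPM at 4 h, near the limit of detection, with a log2 fold change of -2.04 (adjusted p 0.253). Grem1 was at 6.27, 9.05 and 21.4 CPM against 5.54, 4.97 and 5.48 CPM, with -1.20 (adjusted p 0.345), or -0.52 without normal replicate 3. The most abundant, Twsg1 and Nbl1, overlapped between groups, at 90.8 to 243 CPM and 75.8 to 205 CPM.

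Of 10 genes for latent TGF-beta, 9 were tested. Lrrc32, which tethers latent TGF-beta at the cell surface, was at 135, 350 and 224 CPM in normal artery, at 399, 697 and 265 CPM at 1 h, and at 1120.03, 768 and 499 CPM at 4 h. Its 4 h libraries lay above all normal ones, at a log2 difference of 1.75 (SE 0.50, adjusted p 0.214). Thbs1, thrombospondin 1, an activator of latent TGF-beta, was at 56.7 to 131 CPM in normal artery and 58.2 to 153 CPM at 4 h. At 1 h it was at 80.4, 1464 and 730 CPM, so its log2 fold change of 2.95 there came from replicates 2 and 3.

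All 10 further intracellular brakes were tested. Skil, the SMAD corepressor SnoN, was at 38.9, 69.0 and 68.2 CPM in normal artery, at 82.1, 184 and 96.6 CPM at 1 h, and at 165, 150 and 143 CPM at 4 h. It lay above normal in all 6 ischemic libraries, by 1.04 log2 units (SE 0.34, adjusted p 0.246) at 1 h and 1.38 (SE 0.35, adjusted p 0.169) at 4 h, the former 0.61 without 1 h replicate 2. The phosphatase gene Ppm1a was 0.45 and 0.43 higher on the log2 scale, the latter 0.26 without 4 h replicate 3. Tgif1, another SMAD corepressor, went the other way, at 11.6, 20.1 and 15.9 CPM in normal artery against 4.96, 5.06 and 3.63 CPM at 4 h (log2 fold change -1.80, adjusted p 0.143). Ski and Smurf1, the most abundant of this list, overlapped between groups, at 94.6 to 189 CPM and 82.9 to 205 CPM.

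Among 11 other direct targets, all tested, Junb, an AP-1 subunit that many other signals also induce, was at 49.3, 76.6 and 223 CPM in normal artery, at 296, 503 and 301 CPM at 1 h, and at 307, 520 and 248 CPM at 4 h. All ischemic libraries lay above all normal ones, by 1.66 log2 units (SE 0.57, adjusted p 0.261) at 1 h and 1.63 (SE 0.57, adjusted p 0.307) at 4 h, which were 2.54 and 2.51 without normal replicate 3. Runx1 was 1.94 higher at 1 h, and 1.13 without 1 h replicate 2. Hey1, which Notch also controls, was at 31.3, 4.16 and 7.46 CPM in normal artery and at 1.57, 5.31 and 5.48 CPM at 4 h. These groups overlapped, and the log2 fold change of -1.79 was -0.50 without normal replicate 1, the library with the most Schwann cell marker RNA. Ctgf (Ccn2), the most abundant of the list, was at 139, 917 and 890 CPM in normal artery, 861, 1005 and 525 CPM at 1 h, and 2229, 1206 and 756 CPM at 4 h, with overlap.

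The 3 E protein genes, whose products ID proteins bind, were all tested. Tcf3 was at 54.0, 33.7 and 31.8 CPM in normal artery, at 22.9, 20.4 and 22.2 CPM at 1 h, and at 26.0, 27.0 and 22.4 CPM at 4 h. All 6 ischemic libraries lay under the normal ones, at a log2 difference of -0.87 (SE 0.23, adjusted p 0.213) at 1 h and -0.66 (SE 0.23, adjusted p 0.292) at 4 h. Like Id3, it was highest in normal replicate 1, without which its 4 h value was -0.38. Tcf12 ranged from 61.9 to 89.9 CPM over the 9 libraries with overlap between groups.

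**Figure D5:**
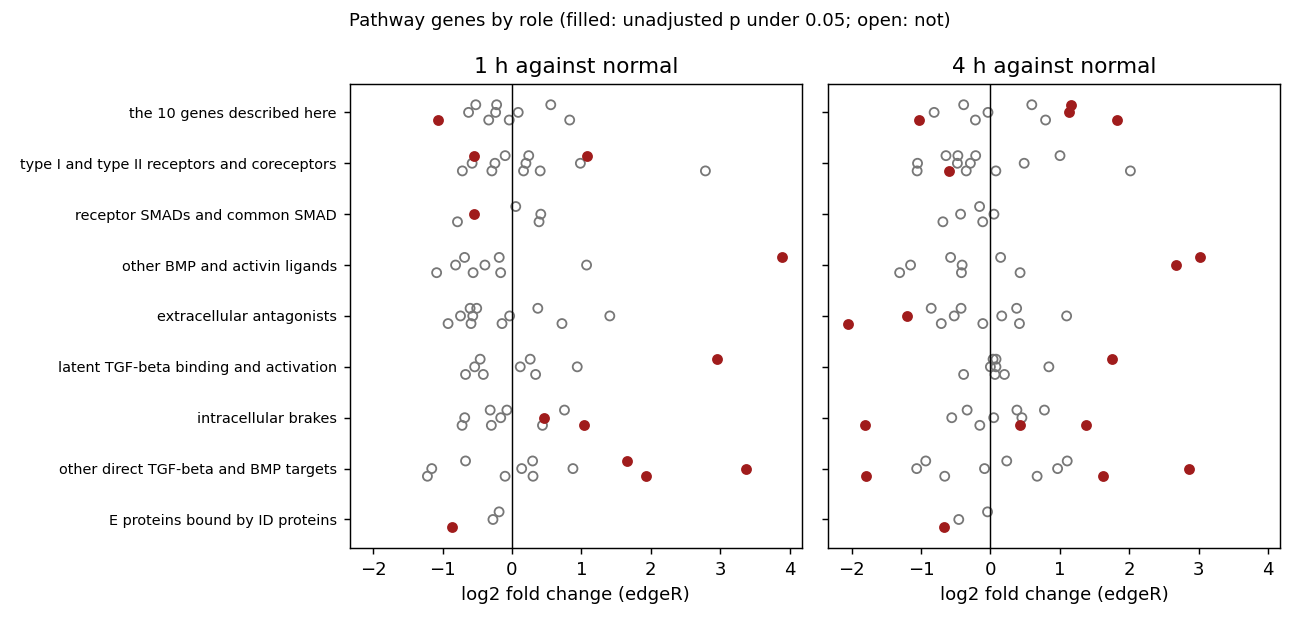
Log2 fold change of the 10 genes and of the 71 other pathway genes tested, in rows by role, at 1 h (left) and 4 h (right) against normal artery. Filled points have an unadjusted p under 0.05 in edgeR and open points do not. Points lie on both sides of 0 in most rows, and no point passed the adjusted threshold.

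The genes nearest in profile were found by the root mean square difference of log2 CPM, each gene centred on its own mean, over the 9 libraries and among 10435 genes of at least 5 CPM. For Smad7 these were Tsc22d1 (0.27) and Heyl (0.27), where the median gene was 0.98 away. For Id3 they were Bahcc1 and Abhd1 (0.15 each, median gene 0.64). Id4 lay nearest to Emd (0.12) and to the brake gene Skil (0.21), Id1 to Trnw (0.28) and Gper1 (0.32), and Id2 to Zbtb7c (0.20) and Amigo2 (0.27). Smad6 lay nearest to Sec61g (0.14) and Ext1 (0.15).

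The ligand genes had other neighbours. Tgfb1 lay nearest to Kdelr1 (0.03) and Nasp (0.06), Tgfb2 to Prrc1 (0.13) and Slc35d1 (0.15), Tgfb3 to Fhl2 and Leprel1 (0.34 and 0.35), and Bmp4 to Ntn1 (0.27) and Col7a1 (0.28). No pair of the 10 genes was among each other's nearest 2. Within the set, Smad7 lay nearest to Id2 (0.49) and Id4 (0.50), and farther from Smad6 (0.60). Id3 lay 0.97 from Id1 and 1.34 from Smad7, farther than 70.5% of all genes lay from Id1 and 83.4% from Smad7. These distances are descriptions over libraries that share their depth and tissue makeup.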

How the data were processed

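RNA was extracted with Trizol and sequenced on an Illumina Hiseq Xten, per the labels. The authors deposited raw counts per gene symbol in 9 libraries, and the submitters' processing notes name HISAT2 for alignment. The counting program, genome build, annotation and use of strand are not given in the sources used here, so overlapping and antisense genes cannot be told apart. The study's methods describe microarrays, while its results mention both gene chips and whole transcriptome sequencing. Whole-number counts are what sequencing gives, and the values were analysed as such. No library was a copy of another (lowest chi-square per degree of freedom 30.8).

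Counts were tested in R 4.3.3 with edgeR 4.0.16 (filterByExpr, TMM, glmQLFit and glmQLFTest, group as the only term) on all 9 libraries. Benjamini-Hochberg adjustment covered the 15482 genes tested, of 37203 symbols. Calls needed an adjusted p under 0.05 and a fold over 1.5, the thresholds in the methods of the study. The SE is the size of the log2 fold change over the root of F, and 95% intervals use the t quantile on the total degrees of freedom. Comparisons with normal artery share the normal libraries. DESeq2 1.42.0 and other settings served as alternatives, and the tests were checked on simulated counts.

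The 10 genes and the lists were chosen with earlier results of these data known. The text names the 10 genes, any called gene and the 2 most abundant genes of each pathway list, and the 2 genes nearest to each of the 10 in profile (log2 CPM with a prior count of 2). Any other gene named was chosen after its values were seen. A pathway gene that was tested and counted is not reported here. Promoters were matched by symbol to RefSeq, build GRCr8. Levels are compared between libraries and not between genes, since no transcript lengths were used here. At these depths counting error is small for all 10 genes beside the within-group spread taken over the groups. In a single group it can be a larger part, as for Tgfb1 in normal artery (708, 588 and 550 counts, coefficient of variation 4.09%).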

Additional observations from a re-analysis of the deposited data

How the results depend on the processing

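No alternative turned the direction of Id3 or Smad7 against normal artery or of Id1 and Id4 at 4 h. Over the 17 alternatives Id3 kept an unadjusted p under 0.05 at both times, with log2 fold changes of -1.21 to -0.73 at 1 h and -1.25 to -0.70 at 4 h, and Smad7 did so at 4 h with 1.53 to 2.05. Among the single-gene changes given in the text, each recomputed under every alternative, 846 values kept their direction and side of the threshold, 17 passed the threshold newly and 18 turned direction. DESeq2 called 1, 2, 2 and 2 of the 10 genes at 1 h, at 4 h, with both times together and over the 3 groups. With the smooth muscle score as a covariate, an alternative added after the data were seen, edgeR called 1 at 4 h and 2 with both times together.

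The turned values are as follows. Scaling by library size alone gave Id3 -0.17 between 4 h and 1 h, where it moved the median of all genes to -0.24 (-0.15 at 4 h against normal). Fitted with the nerve score, the 1 h values of Id2, Smad6 and Tgfb3 were 0.14, 0.20 and 0.14, and with the smooth muscle score that of Smad6 was 0.00014. With single libraries left out, values ran from -0.26 to 0.37 for Id1, -0.58 to 0.15 for Id2, -0.18 to 0.14 for Smad6 and -1.04 to 0.11 for Tgfb3 at 1 h, from -0.15 to 0.12 for Tgfb1, -0.51 to 0.023 for Tgfb2 and -1.16 to 0.35 for Tgfb3 at 4 h, and from -0.033 to 0.11 for Id3 between 4 h and 1 h. The causes were not tested.

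The number of genes called over the whole table was 9 at 1 h, 14 at 4 h, 66 with both times together and 6 over the 3 groups. DESeq2 called 702, 606, 1025 and 669. The nerve score gave 17, 98, 165 and 31, and the smooth muscle score 34, 64, 343 and 36. A fit on only the groups compared gave 4 and 4 at 1 h and 4 h, and the fit without the low-count filter gave 11 over the 3 groups. With single libraries left out, 0 to 11, 1 to 14, 1 to 22 and 0 to 7 genes were called, with the fewest without normal replicate 2 in each and without normal replicate 3 likewise at 1 h and over the 3 groups. Between 4 h and 1 h every setting called 0 genes, and in edgeR an unadjusted p under 0.05 was reached by 206 higher and 194 lower genes. With replicate number as a block 7, 19 and 0 genes were called at 4 h, with both times together and over the 3 groups. Deviations of same-numbered libraries correlated from -0.65 to 0.66, over 0.1 in 4 of 9 pairs. By the same measure 4 of 9 libraries were closest to their own number. Whether the numbers pair the samples cannot be told from this, since the deviations can also reflect tissue makeup. The block changed no call among the 10 genes. With 3 libraries a group and a biological coefficient of variation of 51.6%, the spread between libraries rather than depth sets what can be detected for these genes.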
